A study of Mus musculus with 136 samples.

Results

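The 36 genes described here encode proteins of the first heart muscle and the factors that specify it. They were chosen by symbol as genes known for cardiac muscle and the heart tube, with no measured value in the rule, and all 36 were present among the 47643 genes of the count table. They fall into 6 roles. There are 7 transcription factors of the heart fields (Nkx2-5, Tbx5, Tbx20, Hand1, Hand2, Mef2c and Isl1). The thin filament has 7 members (Tnnt2, Tnni1, Tnni3, Tnnc1, Tpm1, Actc1 and Acta2) and the thick filament another 7 (Myh6, Myh7, Myl2, Myl3, Myl4, Myl7 and Mybpc3). The Z disc, titin and sarcomere assembly are represented by 7 genes (Ttn, Actn2, Nebl, Csrp3, Ldb3, Cryab and Smyd1), calcium handling and the muscle membrane by 5 (Ryr2, Atp2a2, Slc8a1, Pln and Popdc2), and secreted peptides by 3 (Nppa, Nppb and Bmp10).

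RNA was measured in single embryos and in the visceral yolk sac labelled with the same conceptus, collected at embryonic day 8.5 from mice of the NOD strain. NOD females develop autoimmune diabetes spontaneously, and dams that had become hyperglycemic were compared with normoglycemic dams of the same strain on the same chow. All embryos therefore share the NOD background, and maternal diabetes is the labelled difference between conditions. Blood glucose at euthanasia was 423 to 595 mg/dl (median 524) in 11 diabetic dams with a recorded value and 105 to 164 mg/dl (median 120.5) in 10 normal dams. Conceptuses were staged by somite pairs. At 5 to 6 somite pairs there were 17 from normal dams (10 litters) and 17 from diabetic dams (9 litters), and at 7 to 9 somite pairs there were 16 from normal dams (7 litters) and 16 from diabetic dams (6 litters). There was 1 embryo library and 1 yolk sac library under each of 66 conceptus titles. Littermates share a dam, so embryos of 1 litter are not independent, and 7 of the 16 later embryos from diabetic dams came from the single litter D24M15.

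The heart is the first organ to work in the embryo. Cells of the cardiac crescent, marked by Nkx2-5, fuse at the ventral midline into a linear tube that begins to beat and to loop while the first somites form, and Isl1-expressing cells of the second heart field add to it at both ends. Differentiating cardiomyocytes assemble sarcomeres, in which actin thin filaments carrying troponin and tropomyosin slide along myosin thick filaments between Z discs, and titin spans the distance from Z disc to thick filament centre. Chamber myocardium starts to secrete atrial natriuretic peptide, the product of Nppa. Cardiac defects are among the malformations seen more often in diabetic pregnancies.

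Levels are given as normalized counts, that is, unique molecules counted per gene, divided by a size factor for each library. Because QuantSeq reads 1 tag at the 3′ end of a transcript, a count does not grow with transcript length and was not divided by it. Across the 136 libraries, between 1017900 and 5757210 molecules were counted per library, with a median of 2337160. The tissue labels were borne out by markers. Neural plate genes (Sox1, Sox2, Pax6, Otx2 and Sox3) summed to 290 to 909 CPM (counts scaled to a common library total) in embryos and to at most 38.3 in yolk sacs, whereas 10 visceral endoderm genes summed to 4580 to 18937 in yolk sacs and to 45.0 to 1572 in embryos. Nkx2-5 was counted in every embryo, at normalized counts of 7.21 to 46.9, while its yolk sac medians were between 0 and 1.02 in the 4 groups.

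Libraries of a pair of conceptuses stood apart for many of these genes. In N28M05J (normal dam, 6 somite pairs) and D28M02I (diabetic dam, 5 somite pairs), the yolk sac libraries held the 2 highest of 66 values for 17 of the 36 genes. Their yolk sac counts were 818 and 472 for Actc1, where no other yolk sac passed 198, and 746 and 600.4 for Ttn, where the next was 104. The embryos of the same conceptuses were low: Actc1 was 420.4 in the N28M05J embryo and 68.2 in the D28M02I embryo, and D28M02I was the lowest of 66 embryos for 18 of the 36 genes. The 5 neural plate markers in these yolk sacs did not all stand alike. Otx2 was at normalized counts of 4.55 and 5.33, above all of the other 32 earlier yolk sacs (highest 4.11), and Sox1 at 2.28 and 0 (median of the others 0). Sox2 was at 6.07 and 2.66 (median of the others 7.73), Sox3 at 5.31 and 0 (4.87) and Pax6 at 0.759 and 0 (0.278). Why these libraries stood apart was not tested. Results are given with both conceptuses and, where they matter, without them, an alternative chosen after seeing the data. In addition, 2 conceptuses (D28M27C and N28M07E) carry different sex labels on embryo and yolk sac, and the sex-specific transcripts of each library matched its own label. The visceral yolk sac derives from the zygote, so under these 2 titles embryo and yolk sac cannot be of 1 conceptus, and the stage of these 2 yolk sacs, taken from the title's embryo, is not established.

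The 36 genes made up a small share of all molecules in an embryo, and the share was larger at the later stage. In embryos of normal dams it was 0.156% to 0.361% (median 0.254%) at 5 to 6 somite pairs and 0.229% to 0.336% (median 0.287%) at 7 to 9. Embryos of diabetic dams ranged from 0.0967% to 0.343% (median 0.216%) at the earlier stage and from 0.263% to 0.410% (median 0.298%) at the later. Medians for yolk sacs lay between 0.0929% and 0.105%. In whole-embryo libraries, fewer cardiomyocytes and less RNA per cardiomyocyte cannot be told apart.

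For 9 of the 36 genes (Actc1, Hand2, Myh6, Myh7, Myl2, Nppa, Pln, Slc8a1 and Tnnc1) another gene is annotated on the opposite strand over the last 500 bases, and whether counting used the strand is not given in the sources used here. In what follows, 3 numbers given for a group are its lowest, median and highest normalized count. Nearly all thin filament genes were well counted at both stages. Tpm1, the tropomyosin that lies along actin and is also made outside muscle, had the highest counts of the 36, at 1114, 1391 and 2066 in earlier normal embryos and 905, 1369.5 and 1878 in earlier diabetic embryos, followed at the later stage by 1163, 1406 and 1744 (normal) and 1301, 1519.9 and 2123 (diabetic). The groups overlapped throughout. Actc1, the cardiac alpha-actin of the sarcomere, stood at 420.4, 1051 and 1491 in earlier normal embryos, 68.2, 718 and 1409 in earlier diabetic embryos, 676, 1030.5 and 1353 in later normal embryos, and 1083, 1297 and 1708 in later diabetic embryos. Every later diabetic embryo lay above the median of the later normal embryos, and 8 of 16 lay above their highest value. Acta2, smooth muscle alpha-actin, which early cardiomyocytes also express, was at 147, 323 and 511 and at 228, 323 and 483 in normal embryos of the earlier and later stage, and at 55.8, 292 and 431 and at 294, 421 and 594 in diabetic embryos. Tnnt2, the troponin T that anchors the troponin complex to tropomyosin, gave 98.3, 145 and 237, then 143, 199 and 269 in normal embryos, and 23.5, 128 and 234, then 156, 237 and 365 in diabetic embryos. For troponin I, which blocks actin from myosin when calcium is low, the slow skeletal form Tnni1 was counted above the cardiac form Tnni3 in 66 of 66 embryos, as it is in fetal heart. Tnni3 was at 1.53, 8.28 and 17.1 in earlier normal embryos, 1.49, 10.8 and 20.5 in earlier diabetic embryos, 6.68, 15.1 and 32.9 in later normal embryos, and 10.2, 25.4 and 38.7 in later diabetic embryos. Tnnc1, the calcium-binding troponin C, had medians between 45.9 and 69.4 in the 4 groups.

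Among thick filament genes, Myl7, the regulatory light chain of the early tube and later of the atria, led. It was at 135, 271 and 434 in earlier normal embryos, 39.7, 252 and 391 in earlier diabetic embryos, 247, 360.0 and 619 in later normal embryos, and 441, 555 and 932 in later diabetic embryos. The lowest later diabetic embryo thus lay above the highest earlier diabetic embryo. Myl2, its ventricular counterpart, was far lower, with medians of 17.1 and 30.3 in earlier and later normal embryos and 24.9 and 51.6 in diabetic embryos. Mybpc3, the myosin-binding protein C of heart, was at 86.5, 223 and 409.5 and then 157, 280.1 and 432 in normal embryos, and at 26.02, 137 and 385 and then 206, 296 and 642 in diabetic embryos. Essential light chains were represented by Myl3, the ventricular and slow muscle form, and Myl4, the atrial and embryonic form. Myl3 gave 73.7, 143 and 270.4 and then 105, 170.2 and 239.9 in normal embryos, and 36.5, 120.2 and 225 and then 136, 201 and 363 in diabetic embryos. Myl4 gave 39.7, 122 and 219 and then 106, 164 and 222 in normal embryos, and 18.6, 115 and 199 and then 147, 199.6 and 289 in diabetic embryos. Of the heavy chains, Myh7 (beta) was counted above Myh6 (alpha) in all 66 embryos, with medians of 84.5 to 208 for Myh7 and 26.04 to 60.3 for Myh6 over the 4 groups.

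Of the Z disc and assembly genes, Ttn, which encodes the giant spring titin, varied most. Its counts were 156, 361 and 1554 in earlier normal embryos, 54.5, 553 and 1458 in earlier diabetic embryos, 60.4, 669.9 and 881 in later normal embryos, and 152, 390.3 and 1143 in later diabetic embryos, so that medians rank differently at each stage while the ranges overlap. Csrp3, the muscle LIM protein of the Z disc, was at 6.34, 20.1 and 29.7 and then 12.9, 26.95 and 50.8 in normal embryos, and at 3.72, 21.04 and 33.4 and then 25.1, 31.9 and 56.6 in diabetic embryos. Ldb3, the Z disc protein also called Cypher or ZASP, was at 14.3, 36.3 and 73.1 and then 34.3, 57.3 and 88.6 in normal embryos, and at 7.43, 33.8 and 53.5 and then 14.5, 41.3 and 60.002 in diabetic embryos. Unlike the filament genes, Ldb3 was lower in later diabetic embryos, where 5 of 16 lay below the lowest normal value. Medians of the remaining genes over the 4 groups were 85.7 to 102 for Nebl (nebulette), 72.2 to 84.3 for Smyd1 (a methyltransferase needed for myosin assembly), 19.8 to 40.3 for Cryab (a small heat shock protein) and 8.21 to 14.8 for Actn2 (sarcomeric alpha-actinin).

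Transcription factor genes were at moderate counts, and their groups overlapped. Mef2c, a MADS-box factor that activates muscle genes, was at 87.8, 159.7 and 276 and then 63.1, 161 and 195 in normal embryos, and at 59.2, 158 and 259 and then 117, 157 and 234 in diabetic embryos. Medians over the 4 groups were 91.2 to 113 for Hand2, 71.6 to 107 for Tbx20, 64.8 to 102 for Hand1, 58.6 to 65.6 for Isl1, 37.8 to 51.1 for Tbx5 and 19.0 to 25.8 for Nkx2-5. In calcium handling, only Atp2a2, the SERCA pump that refills the sarcoplasmic reticulum and is made in many cells, was abundant, at 329, 408 and 589 and then 399, 485 and 574 in normal embryos, and at 240.4, 424 and 541 and then 266, 440.2 and 601 in diabetic embryos. The ryanodine receptor gene Ryr2 had medians of 16.5 to 27.6 and Popdc2, a cAMP-binding membrane protein gene, 31.1 to 43.8. Slc8a1 (the sodium-calcium exchanger), Pln (the SERCA inhibitor phospholamban), Nppb (brain natriuretic peptide) and Bmp10 (a growth factor of trabecular myocardium) had medians of at most 5.56 and fell below the filter on low counts in every comparison, which leaves at most 32 of the 36. With no filter, 2 of these 4 were called as rising with stage, Pln (2.24 ± 0.47 on the log2 scale in normal embryos, adjusted p = 0.0027, and 0.43 ± 0.12 per somite pair) and Nppb (2.04 ± 0.53, adjusted p = 0.020, and 0.58 ± 0.12), at medians of at most 2.04 and 1.61 counts. Nppa was close to absent at the start, at 0, 2.98 and 12.4 in earlier normal and 0, 7.36 and 21.1 in earlier diabetic embryos, and reached 0.957, 20.1 and 32.3 in later normal and 9.09, 19.9 and 55.5 in later diabetic embryos.

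**Figure D1:**
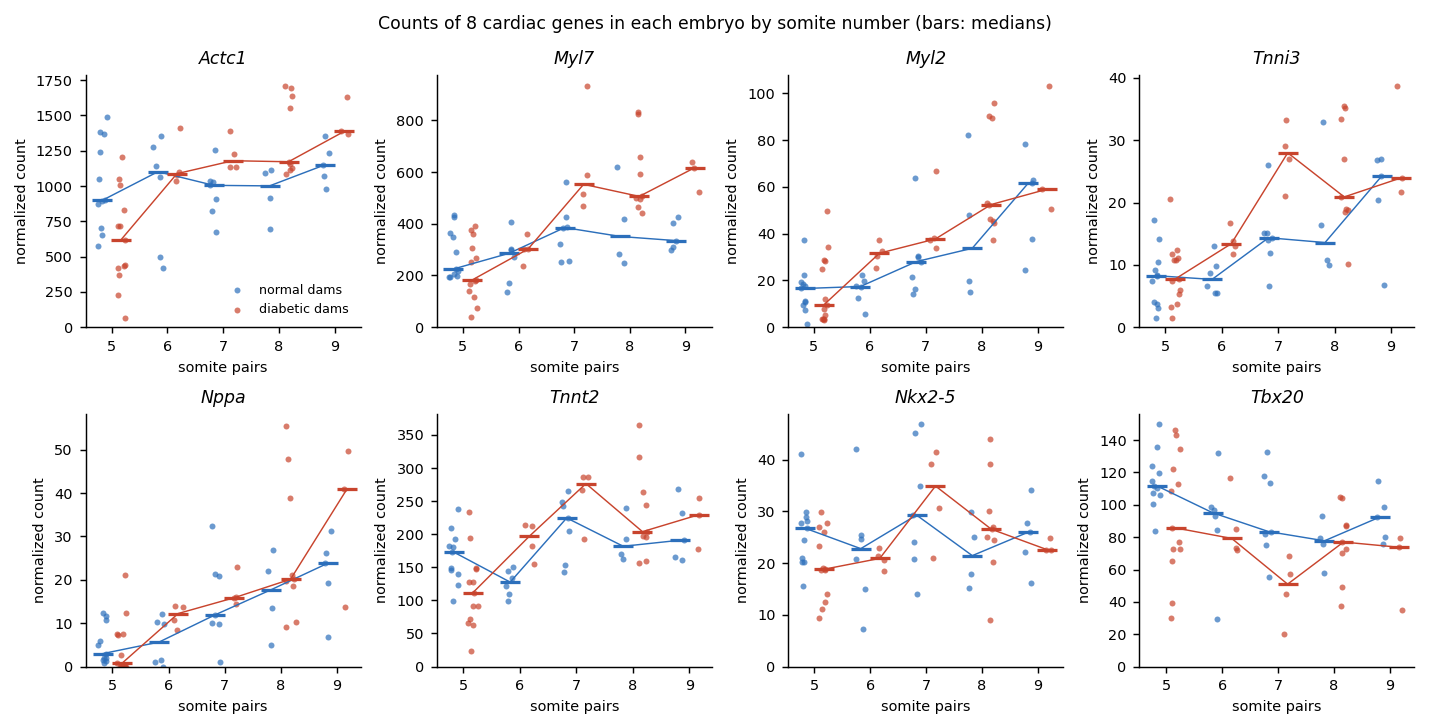
Normalized count (vertical axis) of 8 genes against somite pairs (horizontal axis) in 66 embryos, with normal dams in blue, diabetic dams in red, and bars joined by lines at the median for each somite number. The median of Nppa over both conditions went from 2.31 at 5 somite pairs to 25.01 at 9, and that of Tbx20 from 109.6 to 80.0.

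Promoters are shown for Actc1, Myl7 and Myl3, which were picked with the differences described further on known. Each holds a CArG box, the site of serum response factor, close to the gene start. Among the other genes with the box, Ldb3 was lower in later diabetic embryos and Nebl was not called, nor was Myl3. Tnni3, Csrp3, Myl4 and Acta2 were called higher there without the box in the bases searched. A link between the box and the differences was not tested. The sequences are from RefSeq on GRCm38.p6 and run 5′ to 3′ on the strand of the gene, from 250 bases before the start to the last base ahead of annotated exons, with the CArG box in capitals. They lie at chr2:114052888-114053125 (minus strand, Actc1), chr11:5898783-5899032 (minus strand, Myl7) and chr9:110763428-110763645 (plus strand, Myl3).
Actc1: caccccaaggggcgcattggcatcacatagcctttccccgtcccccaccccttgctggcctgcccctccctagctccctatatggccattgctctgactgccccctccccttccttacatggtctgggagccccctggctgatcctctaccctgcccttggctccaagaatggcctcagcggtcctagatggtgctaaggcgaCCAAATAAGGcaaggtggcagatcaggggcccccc
Myl7: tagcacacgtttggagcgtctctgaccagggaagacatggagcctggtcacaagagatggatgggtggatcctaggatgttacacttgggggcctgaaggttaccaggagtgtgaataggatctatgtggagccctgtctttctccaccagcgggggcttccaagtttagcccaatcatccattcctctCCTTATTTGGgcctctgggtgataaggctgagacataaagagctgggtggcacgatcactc
Myl3: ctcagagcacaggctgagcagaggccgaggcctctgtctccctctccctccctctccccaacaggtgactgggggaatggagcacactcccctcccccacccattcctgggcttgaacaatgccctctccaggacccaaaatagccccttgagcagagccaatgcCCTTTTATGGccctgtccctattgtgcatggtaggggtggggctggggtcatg
The box was searched as CC, 6 bases of A or T, then GG, which reads the same on either strand. It lay 47 to 38 bases upstream of the start in Actc1, 61 to 52 in Myl7 and 85 to 76 in Myl3. RefSeq promoters were matched for 32 of the 36 genes, all except Atp2a2, Cryab, Hand1 and Tbx5, and 5 of the 32 (15.6%) held the box in the 250 bases upstream (Actc1, Myl3, Myl7, Nebl and Ldb3), compared with 1.62% of 27025 genes. CATTCC, the site of TEAD factors, was found on either strand in 12 of 32 (37.5%) against 14.4% of all genes. The GATA factor motif, GATAAG, was found in 6 of 32 (18.8%) against 7.60%, and TATAAA in 6 of 32 (18.8%) against 14.3%. In Myl7 a CATTCC match lay 70 to 65 bases and a GATAAG match 41 to 36 bases upstream, and neither shared a base with the CArG box. Such matches describe the letters of the window and not occupied sites.

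Across 5 to 9 somite pairs, most contractile genes rose with somite number in a fit that pooled both conditions. The shared slope need not hold in each condition. Between the stages, as given below, 7 of 32 genes were called as rising in normal and 18 in diabetic embryos. With litter as a fixed block these counts were 14 and 10. By direct test that change differed between conditions for Myl7, Actc1 and Acta2. With somite number as a continuous variable and both conditions sharing 1 slope, 18 of 32 genes tested rose per somite pair, compared with 12.4% of all genes tested, and 1 fell, compared with 12.9%, and DESeq2 called the same 19 genes (edgeR quasi-likelihood test, adjusted over all genes, here and in all comparisons unless another test is named). The steepest rises on the log2 scale were those of Nppa (0.65 ± 0.09 SE per somite pair, adjusted p = 2.99e-07), Myl2 (0.51 ± 0.06, adjusted p = 2.03e-08) and Tnni3 (0.41 ± 0.05, adjusted p = 8.85e-08). All 3 encode proteins typical of chamber myocardium. Nppa did not pass the filter on low counts in the fit of earlier embryos alone. Here and in the stage changes below, its place among the genes tested depended on its higher counts in later embryos. Medians for 5, 6, 7, 8 and 9 somite pairs were 11.6, 21.03, 30.4, 47.8 and 60.2 for Myl2 and 7.99, 10.8, 15.2, 19.0 and 24.1 for Tnni3, an increase at every step. All 7 thick filament genes rose, with slopes from 0.16 (Myl3) to 0.51, as did 6 of 7 thin filament genes, with Tpm1 the exception at 0.04 ± 0.02 (adjusted p = 0.19). In the Z disc and assembly group, Actn2 (0.25), Csrp3 (0.23), Cryab (0.18) and Ldb3 (0.16) rose, and Ttn (0.02 ± 0.08), Nebl (0.02 ± 0.04) and Smyd1 (0.01 ± 0.04) did not pass the test. No transcription factor gene rose, and Tbx5 alone among them had a positive slope at an unadjusted p under 0.05 (0.10 ± 0.04, adjusted p = 0.078). Tbx20, a T-box factor of the early myocardium, was the 1 gene that fell (-0.11 ± 0.04, adjusted p = 0.032), and this call was lost with litter as a random block (adjusted p = 0.18). The calls of Tbx20, Tnnc1, Cryab and Myh6 were also lost without litter D24M15 (adjusted p = 0.062, 0.15, 0.065 and 0.057). With litter as a fixed block 16 genes were called, all among the 19, and those lost were Tbx20, Myh6 (adjusted p = 0.058) and Mybpc3 (adjusted p = 0.059).

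The stage change was then taken within each condition, as the difference between 7 to 9 and 5 to 6 somite pairs. In embryos of normal dams, 7 of 32 genes tested rose, against 6.13% of all genes. None fell, also by DESeq2 and at an unadjusted p under 0.05 (0 genes each), and 14 were higher at that unadjusted level. Shares of all genes are given at the adjusted level only, so counts at the unadjusted level, here and below, have no share to be set against. Those that rose were Nppa (log2 change 1.65 ± 0.35, adjusted p = 0.0018), Myl2 (1.27 ± 0.26, adjusted p = 0.0013), Tnni3 (1.02 ± 0.23, adjusted p = 0.0027), Ldb3 (0.59 ± 0.17, adjusted p = 0.017), Myh7 (0.52 ± 0.16, adjusted p = 0.024), Tnnt2 (0.42 ± 0.11, adjusted p = 0.012) and Myl7 (0.42 ± 0.15, adjusted p = 0.046). The actins gave 0.03 ± 0.14 (Actc1, adjusted p = 0.90) and -0.01 ± 0.15 (Acta2, adjusted p = 0.97). The median over the 32 genes was 0.30, and over all genes -0.00. With litter as a random or as a fixed block, 14 genes were called, among them all 7 and 6 of the 7 genes named. The call of Myl7 was lost without N23M31, N24M21, N24M29, N28M03, N28M06, N28M07 or N28M30 (adjusted p = 0.053 to 0.125), that of Myh7 without N28M05 or N28M30 (adjusted p = 0.074 and 0.065) and that of Ldb3 without N28M05 (adjusted p = 0.062). Without the 2 conceptuses that stood apart, Myl7 was at 0.37 (adjusted p = 0.067) and Tbx20 fell by 0.32 (adjusted p = 0.034).

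In embryos of diabetic dams, 18 of 32 genes tested rose between the stages, against 15.1% of all genes, and DESeq2 called the same 18. None fell by either tool, and 1, Tbx20 (-0.43 ± 0.18, adjusted p = 0.075), was lower at an unadjusted p under 0.05. Again Nppa (1.97 ± 0.39, adjusted p = 0.00035), Myl2 (1.54 ± 0.28, adjusted p = 0.00016) and Tnni3 (1.37 ± 0.21, adjusted p = 1.68e-05) had the largest changes, followed by Myl7 (1.34 ± 0.20, adjusted p = 8.77e-06). All 7 thick filament genes rose, from 0.72 ± 0.21 (Myl3) upward, and so did 6 of 7 thin filament genes, from 0.48 ± 0.17 (Tnnc1) to Tnni3. Actc1 rose by 0.86 ± 0.22 (adjusted p = 0.0034) and Acta2 by 0.74 ± 0.18 (adjusted p = 0.0027). All 16 later embryos lay above the earlier median of Actc1, whereas 7 of 16 did among normal embryos. In the Z disc group, Actn2 (1.13 ± 0.25), Csrp3 (0.90 ± 0.18) and Cryab (0.88 ± 0.21) rose. Nkx2-5, the homeobox factor that marks cardiac progenitors, was the only transcription factor gene called (0.49 ± 0.16, adjusted p = 0.021). None of the 3 calcium and membrane genes tested was called or had an unadjusted p under 0.05, with Ryr2 at -0.16 ± 0.24, Atp2a2 at 0.11 ± 0.10 and Popdc2 at -0.13 ± 0.19. With litter as a random block the call of Nkx2-5 was lost (0.42, adjusted p = 0.076). The calls that depended on 1 litter were those of Nkx2-5 (without D24M15 or D28M23, adjusted p = 0.085 and 0.10), Tnnc1 (without D24M15, D28M23, D28M24 or D28M53, adjusted p = 0.055 to 0.30) and Myh6 (without D24M15, D28M36 or D28M37, adjusted p = 0.063 to 0.079). With litter as a fixed block, which uses the 3 diabetic litters that held both stages, 10 genes were called. Lost were Actc1 (0.89, adjusted p = 0.11), Nkx2-5, Tnni1, Tnnc1, Myh6, Myh7, Myl3 and Mybpc3 (adjusted p = 0.056 to 0.081). The same block gave 14 calls in normal embryos, where 7 litters held both stages.

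**Figure D2:**
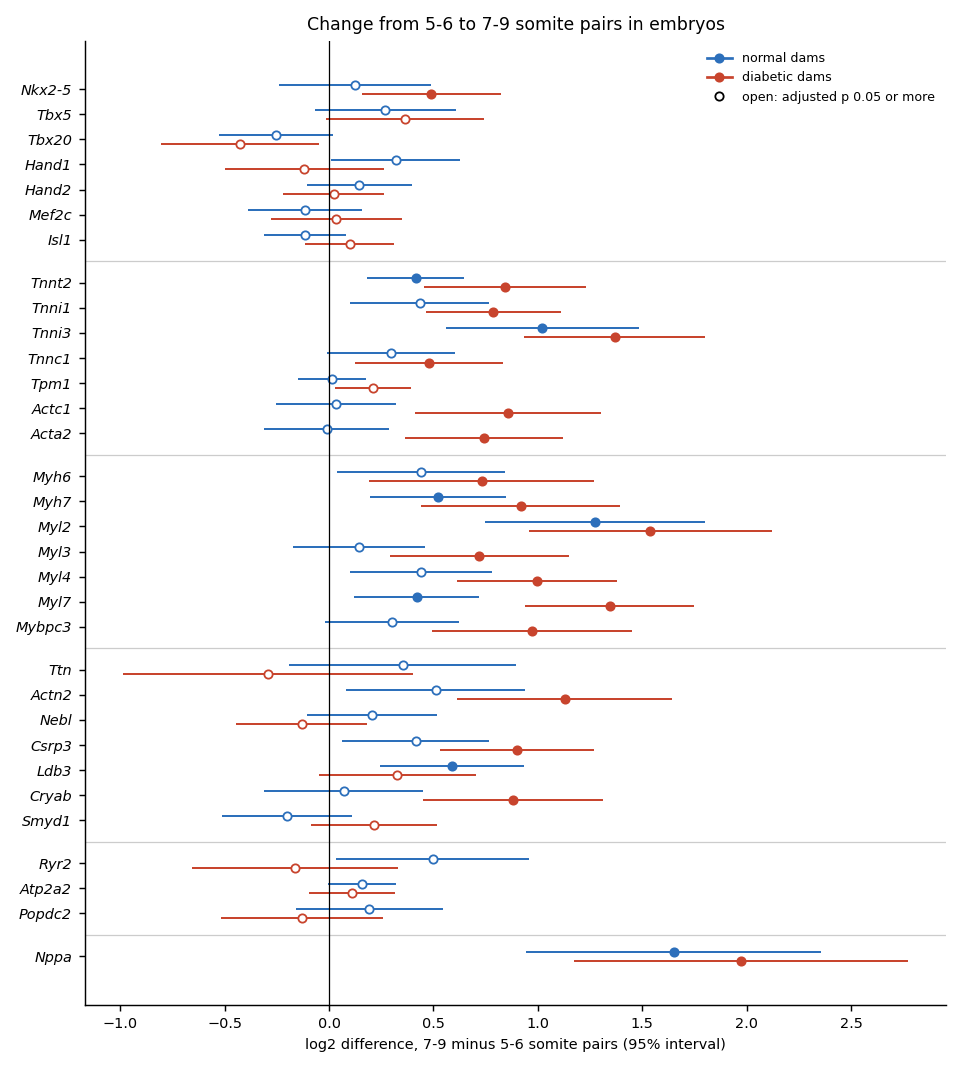
Log2 change from 5 to 6 to 7 to 9 somite pairs (horizontal axis) for the 32 genes tested, with 95% intervals, in embryos of normal (blue) and diabetic (red) dams. Filled points have an adjusted p under 0.05 (7 blue and 18 red), and grey lines separate the roles.

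Genes of primitive red cells also rose over the same interval. The hemoglobin genes Hba-x, Hbb-y and Hbb-bh1, the 3 of 5 primitive erythroid markers that could be tested, rose in both conditions (Hba-x by 3.33 ± 0.48 and 5.11 ± 0.67 on the log2 scale). The 5 markers summed to 4.99 to 34.0 CPM in earlier normal and 1.03 to 72.3 in earlier diabetic embryos, and to 9.28 to 724 and 16.4 to 2291 at the later stage. Skeletal muscle progenitor genes (Myf5, Myf6, Myod1, Myog and Pax7) summed to at most 32.1 CPM in any embryo, and the 1 of 5 that could be tested was not called in any embryo comparison. The part of these cells in the stage changes was not tested.

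Whether the stage change differed between conditions was tested directly, as an interaction over the 66 embryos. It was larger in embryos of diabetic dams for 3 of 32 genes, against 4.35% of all genes. It was smaller for none, also by DESeq2 and at an unadjusted p under 0.05 (0 genes each). Myl7 differed by 0.91 ± 0.25 on the log2 scale (adjusted p = 0.020), Actc1 by 0.81 ± 0.27 (adjusted p = 0.044) and Acta2 by 0.74 ± 0.24 (adjusted p = 0.042). For the actins, the earlier diabetic embryos had lower medians and the later diabetic embryos higher medians than the normal embryos of their stage. Cryab gave 0.81 ± 0.29 (adjusted p = 0.064), and all other genes had an adjusted p of at least 0.13. Without litter D24M15 Actc1 no longer passed (0.83, adjusted p = 0.067), and without a filter on low counts only Myl7 did. Without the 2 conceptuses that stood apart, the values were 0.89, 0.79 and 0.73 (adjusted p = 0.016, 0.029 and 0.037).

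The central comparison of the study set diabetic against normal pregnancies. At 5 to 6 somite pairs no cardiac gene passed the test. There 0 of 31 genes tested were called, against 1.46% of all genes, DESeq2 also called 0, and 3 had an unadjusted p under 0.05. Those 3 were Hand1 (0.47 ± 0.18, adjusted p = 0.13), a bHLH factor of the left ventricle and extraembryonic mesoderm, Ryr2 (0.56 ± 0.25, adjusted p = 0.20) and Cryab (-0.48 ± 0.22, adjusted p = 0.20). Actc1 was at -0.41 ± 0.23 with a 95% interval from -0.88 to 0.07 (adjusted p = 0.31). Mybpc3 was at -0.42 ± 0.23 (adjusted p = 0.29) and Acta2 at -0.37 ± 0.20 (adjusted p = 0.28), so decreases of this size could not be told from the spread between embryos. Without the 2 conceptuses that stood apart the count was also 0.

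At 7 to 9 somite pairs, 6 of 32 genes tested were higher in embryos of diabetic dams, against 5.2% of all genes, and 1 was lower, against 3.89%. Those higher were 3 thin filament genes, 2 thick filament genes and 1 Z disc gene. Myl7 had the largest difference (0.69 ± 0.12 on the log2 scale, adjusted p = 0.00070), with all 16 diabetic embryos above the normal median and 5 above the normal maximum. Tnni3 was higher by 0.57 ± 0.19 (adjusted p = 0.0498), with 15 of 16 above the normal median. By the same count above the normal median, Csrp3 followed at 0.47 ± 0.15 (adjusted p = 0.045, 13 of 16), Actc1 at 0.39 ± 0.09 (adjusted p = 0.0074, 16 of 16), Myl4 at 0.38 ± 0.10 (adjusted p = 0.019, 15 of 16) and Acta2 at 0.35 ± 0.11 (adjusted p = 0.041, 14 of 16). The gene that was lower was Ldb3 (-0.55 ± 0.16, adjusted p = 0.027), with 2 of 16 above the normal median. That count was also 2 of 16 for Ttn, Nebl and Popdc2, which were not called. Of the 14 filament genes 5 were called and 9 did not pass the test, among them Myl2 (0.59 ± 0.23, adjusted p = 0.094) and Myl3 (0.37 ± 0.14, adjusted p = 0.077). On GRCm38, GENCODE M21 places Myl7 (ENSMUSG00000020469) at chr11:5896637-5898782, Tnni3 (ENSMUSG00000035458) at chr7:4518305-4524229, Csrp3 (ENSMUSG00000030470) at chr7:48830398-48848033, Actc1 (ENSMUSG00000068614) at chr2:114047282-114053548, Myl4 (ENSMUSG00000061086) at chr11:104550663-104595753, Acta2 (ENSMUSG00000035783) at chr19:34241090-34255590 and Ldb3 (ENSMUSG00000021798) at chr14:34526603-34588682. No transcription factor gene was called by either edgeR or DESeq2, and 1, Tbx20, had an unadjusted p under 0.05 (-0.39 ± 0.16, adjusted p = 0.10), while Isl1 and Nkx2-5 were both at 0.06. Ttn was at -0.45 ± 0.24 (adjusted p = 0.22) and Nppa at 0.58 ± 0.28 (adjusted p = 0.18). DESeq2 called the same 7 genes. Mean somite numbers of the groups were close, 7.938 in diabetic and 7.875 in normal embryos. With somite number and sex as covariates 5 of the 7 calls remained, and Tnni3 (adjusted p = 0.056) and Csrp3 (adjusted p = 0.064) were lost.

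**Figure D3:**
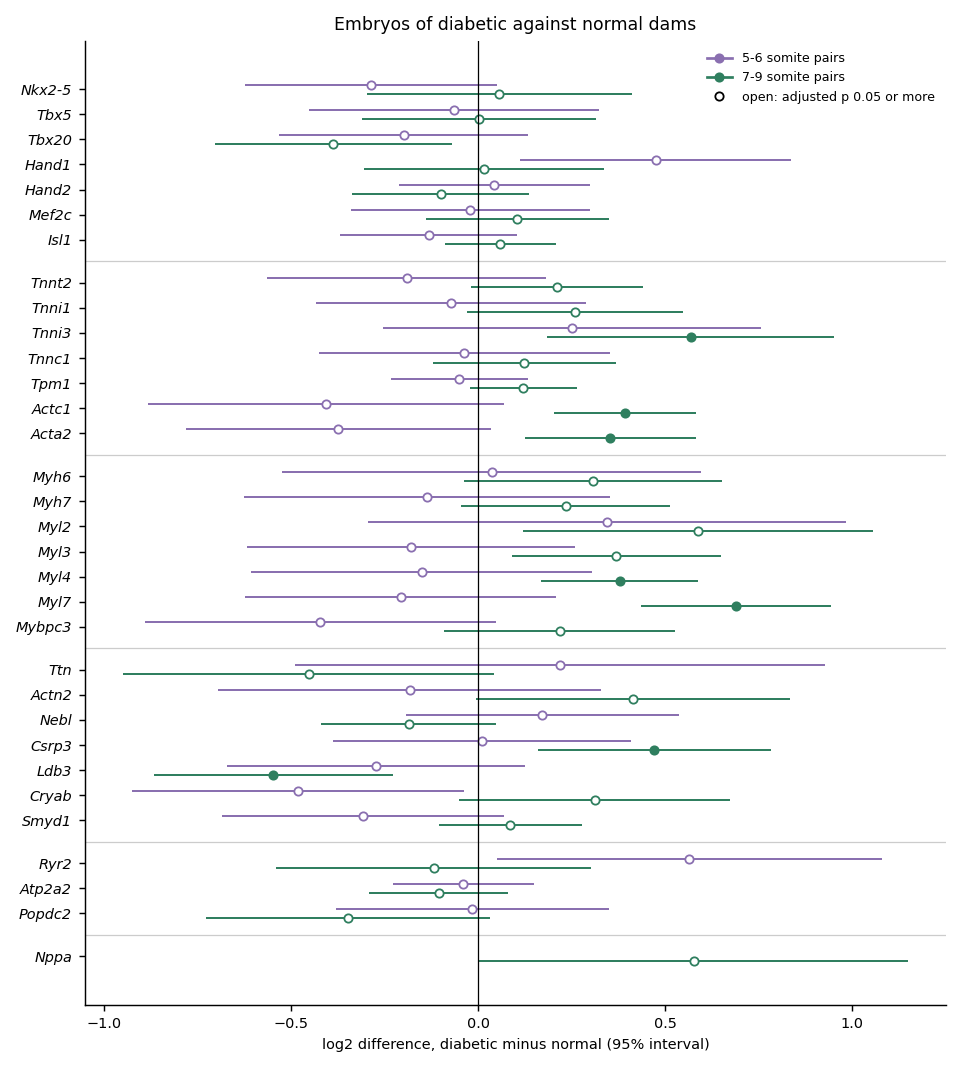
Log2 difference between embryos of diabetic and normal dams (horizontal axis) with 95% intervals, at 5 to 6 (purple) and 7 to 9 (green) somite pairs. Filled points have an adjusted p under 0.05, which none of the earlier and 7 of the later estimates reached, 6 above 0 and Ldb3 below.

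The litter is the unit to which the dam's diabetes applied. Litter means of Actc1 did not overlap, at 927 to 1128 (median 1026) in 7 normal litters and 1133 to 1691 (median 1320.1) in 6 diabetic litters. Those of Ldb3 were also apart, at 54.9 to 64.1 (median 59.5) and 23.5 to 47.6 (median 38.4), as were those of Tbx20, at 77.6 to 118 (median 92.6) and 47.2 to 75.9 (median 68.3). These means come from the same embryos as the calls and are no separate evidence. The share of all genes with litter means apart was not computed. Myl7 overlapped slightly, with 256 to 493 (median 336) in normal and 470.3 to 785 (median 611) in diabetic litters. Tnni3, Acta2, Myl4 and Csrp3 also overlapped, with medians of 19.4 and 29.2, 322 and 439, 165 and 210.4, and 26.9 and 34.9. With litter as a random block, Myl7 (adjusted p = 0.0088) and Actc1 (adjusted p = 0.037) remained called and the other 5 did not. With counts summed per litter, none of the 7 passed, and Myl7 came closest (0.73, adjusted p = 0.0505) ahead of Actc1 (0.41, adjusted p = 0.070).

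Leaving out single litters gave 2 to 8 calls. There were 2 without N28M05, 3 without D28M23 or D28M31, and 4 without D28M24, D28M36, N24M29 or N28M03. Actc1 and Myl7 were called in every case. Myl4 lost its call without N28M05 (adjusted p = 0.070), and Ldb3 without N28M05, D28M23 or D28M31 (adjusted p = 0.063, 0.060 and 0.068). Tnni3 and Acta2 lost theirs without any of D28M23, D28M24, D28M31, D28M36, N24M29, N28M03 and N28M05, as well as N28M07 for Tnni3 and N28M06 for Acta2 (adjusted p = 0.050 to 0.12). Csrp3 did so without the same 7 litters or N24M21 or N28M07 (adjusted p = 0.056 to 0.17). Without D24M15, Tbx20 passed as lower (-0.54, adjusted p = 0.048). Of the other cell types, 1 of 3 smooth muscle markers tested, Myocd, was lower in later diabetic embryos, and no marker of visceral endoderm (8 tested), blood (3), endothelium and endocardium (8), neural plate (5), skeletal muscle (1) or allantois (5) was called at this stage. At an unadjusted p under 0.05 these were 3 of the neural plate, 1 of blood and 1 of skeletal muscle. The 5 neural plate markers summed to 336 to 899 CPM (median 536) in later diabetic and 429 to 840 (median 635) in later normal embryos, and the 5 smooth muscle markers to 21.1 to 54.4 (median 35.3) and 24.9 to 45.4 (median 39.1). The part of these cells in the differences was not tested.

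In the yolk sac, where mesoderm beneath the endoderm shares several of these genes with the heart, no difference between conditions passed the test. At 5 to 6 somite pairs 0 of 18 genes tested were called, against 0% of all genes, and at 7 to 9 somite pairs 0 of 16, against 0.0194%. DESeq2 called 0 at either stage, and 1 gene at each stage had an unadjusted p under 0.05, Hand1 at the earlier (0.43 ± 0.15, adjusted p = 0.52) and Hand2 at the later (0.39 ± 0.17, adjusted p = 0.41). Without the 2 yolk sacs whose stage is not established, the counts were also 0 and 0.

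Comparing the tissues within stages showed which of the 36 genes were higher in the embryo. At 5 to 6 somite pairs 24 of 30 genes tested were higher in the embryo, against 39.8% of all genes, and 3 were lower, against 39.4%. At 7 to 9 somite pairs 27 of 32 were higher, against 42.6%, and 3 lower, against 38.7%. The filter on low counts ran over both tissues, so a gene could pass it through the embryo libraries alone. In the yolk sac fits, 18 genes passed it at the earlier stage and 16 at the later. For genes that passed through the embryo alone, a higher count there was close to given in advance. At the later stage the log2 difference was 4.81 ± 0.24 for Actc1 and 3.98 ± 0.19 for Myl7, which passed the filter in the yolk sac fit as well. It was 5.73 ± 0.21 for Myh7, 5.19 ± 0.32 for Ttn and 4.64 ± 0.23 for Nkx2-5. These last genes did not pass it in the later yolk sac fit, so their direction was close to given in advance. Myl2 (6.64 ± 0.27) and Nppa (6.49 ± 0.34) had yolk sac medians of 0 in all 4 groups, so the size of their difference depends on the count the fit adds. Among those higher in the embryo, Tpm1 (0.68 ± 0.06 at the earlier stage), Tnni1 (0.61 ± 0.15) and Popdc2 (0.47 ± 0.16) were also counted in every yolk sac. Higher in the yolk sac at both stages were Hand1 (-1.59 ± 0.12 and -1.79 ± 0.10) and Tbx20 (-0.48 ± 0.12 and -0.59 ± 0.10). Yolk sac medians over the 4 groups were 194 to 274 for Hand1 and 99.0 to 113 for Tbx20. Acta2 was lower in the embryo at the earlier stage (-0.67 ± 0.12, adjusted p = 5.46e-07) and not distinguishable at the later (-0.18 ± 0.09, adjusted p = 0.060). The other gene called lower in the embryo at the later stage was Cryab (-0.36, adjusted p = 0.0078). At the earlier stage Cryab and Tnni3 were tested and called in neither direction. Tnni3 medians there were 8.28 (normal) and 10.8 (diabetic) in embryos and 7.20 and 5.68 in yolk sacs. Atp2a2 did not differ beyond its error at either stage (-0.09 ± 0.07 and -0.04 ± 0.07). Leaving out the 2 conceptuses that stood apart raised the earlier differences, from 3.06 to 5.08 for Ttn, 3.47 to 5.12 for Myh7, 2.93 to 4.61 for Myh6, 4.22 to 5.52 for Myl2 and 3.26 to 4.23 for Actc1.

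**Figure D4:**
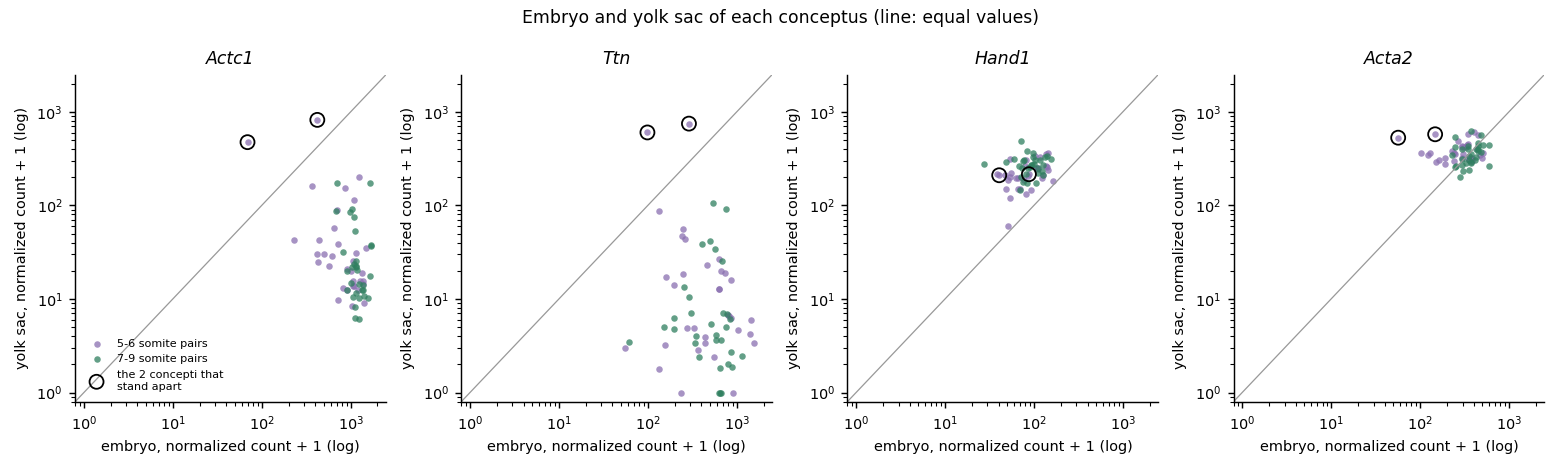
Normalized count plus 1 in the yolk sac (vertical axis) against that in the embryo of the same title (horizontal axis), both on log scales, for Actc1, Ttn, Hand1 and Acta2 under 66 titles. The line marks equal counts, and circles mark the 2 conceptuses whose yolk sacs had the highest Actc1 (818 and 472).

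Ratios between related genes within a library need no size factor and give the level of 1 gene relative to another. A shift does not show that 1 replaced the other, and Tnni1 and Tnni3 both rose between stages in diabetic embryos. Of 8 pairs compared between stages within each condition and between conditions within each stage (32 two-sided permutation tests with 100000 resamples, adjusted together), 5 differences passed. The log2 ratio of Tnni1 to Tnni3 fell by 0.64 in normal embryos (mean 2.90 to 2.26, adjusted p = 0.040) and by 0.65 in diabetic embryos (2.56 to 1.90, adjusted p = 0.021). With a pseudocount of 2 the difference in normal embryos did not pass (adjusted p = 0.057). These tests exchanged single embryos, and no test by litter was run for the stage ratios. In normal embryos the ratio of Myl2 to Myl7 rose by 0.84 (-4.22 to -3.39, adjusted p = 0.013), while in diabetic embryos the difference was 0.45 (adjusted p = 0.22). Myl3 to Myl4 fell by 0.35 in normal embryos (0.31 to -0.04, adjusted p = 0.040), and Nppa to Nppb rose by 1.93 in diabetic embryos (adjusted p = 0.023). The last call rests on few Nppb molecules and was lost without litter D24M15 (1.73, adjusted p = 0.15), and that of Myl3 to Myl4 was lost without the 2 conceptuses that stood apart (-0.29, adjusted p = 0.077). None of the 16 differences between diabetic and normal embryos passed, and 2 had an unadjusted p under 0.05, the smallest adjusted p values being those of Hand1 to Hand2 at the earlier stage (0.42, adjusted p = 0.18) and Tnni1 to Tnni3 at the later (-0.35, adjusted p = 0.18).

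**Figure D5:**
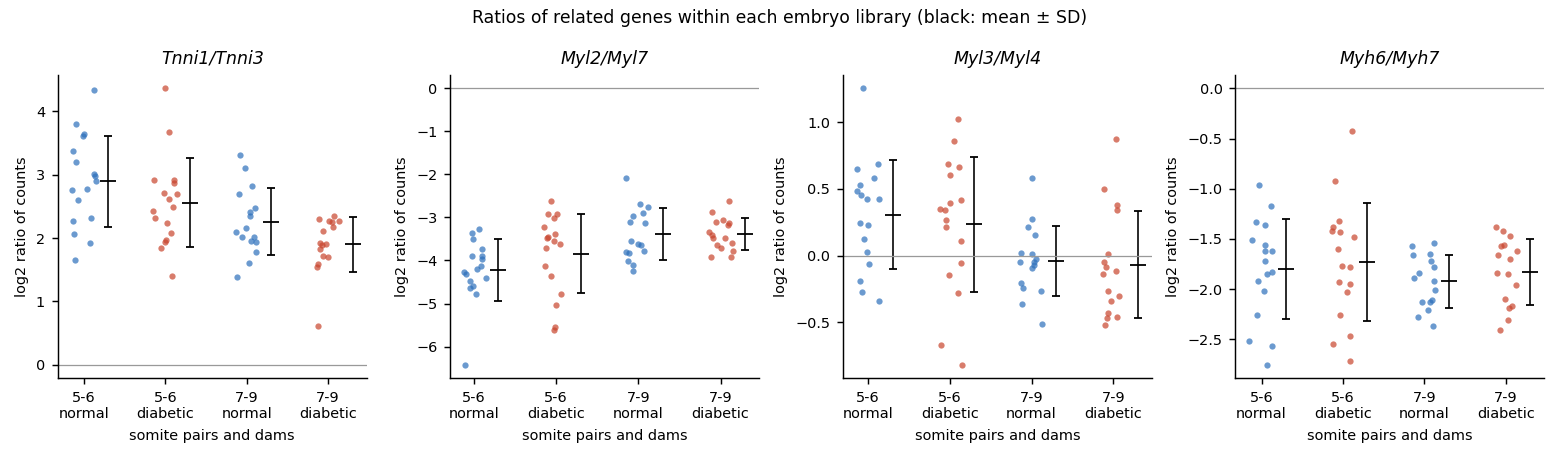
Log2 ratio of counts within each embryo library (vertical axis) for Tnni1 to Tnni3, Myl2 to Myl7, Myl3 to Myl4 and Myh6 to Myh7 in the 4 groups, with the mean and SD. The mean of Tnni1 to Tnni3 was lower at the later stage in both conditions, and every Myh6 to Myh7 point lies below 0.

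The pathways around the 36 genes were followed in a further 103 cardiac genes in 5 lists. At 7 to 9 somite pairs, 6 of 61 tested differed between conditions, a share near the 9.09% of all genes. Tpm2, another tropomyosin (0.44 ± 0.10, adjusted p = 0.0058), Myl9, a smooth and non-muscle light chain (0.52 ± 0.16, adjusted p = 0.034), and Cox7a1, the muscle form of a cytochrome oxidase subunit (0.50 ± 0.16, adjusted p = 0.040), were higher in diabetic embryos. Mef2a (-0.35 ± 0.09, adjusted p = 0.015), Myocd, the coactivator of serum response factor (-0.74 ± 0.24, adjusted p = 0.047), and the calcium channel gene Cacna1c (-0.53 ± 0.16, adjusted p = 0.038) were lower. At 5 to 6 somite pairs 1 of 64 was called, against 1.46% of all genes, Unc45b, a myosin chaperone (-0.58 ± 0.16, adjusted p = 0.048). Between the stages, 3 of 63 rose in normal embryos (Tmod1 0.69, Cacna2d2 0.66 and Flnc 0.49) and 3 fell (Kcnj3 -0.71, Kcnh2 -0.53 and Atp1b1 -0.39), against 6.13% and 8.97% of all genes. In diabetic embryos 19 of 63 rose, led by Myl9 (1.20), Acta1 (1.08), Pgam2 (0.92), Eno3 (0.87) and Synpo2l (0.86), and 10 fell, led by Kcnj3 (-1.12), Myocd (-0.85), Sfrp5 (-0.83), Cavin4 (-0.69) and Tagln (-0.62), against 15.1% and 14% of all genes. The number that fell is near that share. Those that rose included 9 of 16 sarcomere and assembly genes and all 5 energy metabolism genes tested. The interaction was positive for Myl9 (0.81), Cox7a1 (0.70) and Unc45b (0.67) and negative for Gja1, the gap junction protein connexin 43 (-0.92), and Mef2a (-0.54), of 68 tested. Among all genes 4.35% were called in each direction, and the counts here are near or below that share.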

How the data were processed

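RNA from single NOD mouse embryos and their visceral yolk sacs was sequenced with the QuantSeq 3′ FWD kit with unique molecular identifiers. The authors deposited raw counts of unique molecules per gene; the submitters' processing notes name STAR, HTSeq and mm10, with versions not given in the sources used here. Columns were tied to samples by title, and stage, condition and litter came from the labels. The yolk sacs of the 2 titles whose sex labels disagree were staged by the embryo of that title. The 4 batch control libraries were left out of all fits. Totals of 1017900 to 5757210 molecules per library limit precision for low genes, and intervals reflect the spread between conceptuses, which need not be that between litters.

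Each comparison was fitted over all genes with edgeR 4.0.16 (R 4.3.3), using the quasi-likelihood test on the deposited counts, TMM factors, filterByExpr with a minimum count of 10, and p-values adjusted by the Benjamini-Hochberg method across the tested genes, called under 0.05. Intervals are at 95%. Normalized counts were divided by DESeq2 1.42.0 size factors over all libraries of 1 tissue. Ratios used a pseudocount of 0.5 and permutation tests in SciPy 1.17.1 on Python 3.11.15. Most of the fits were tested on simulated data in which every library was drawn independently. The simulation held no litter effect, so it could not test the treatment of littermates as independent. Alternatives were DESeq2's Wald test, DESeq2-style size factors, no filter or a mean count of 10, litter as a random block (limma 3.58.1) or as a fixed block, counts summed per litter, somite number and sex or the number in the title as covariates, and each litter left out.

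The title pairs each embryo with a yolk sac, by origin for all but the 2 titles with unlike sex. Their deviations from group means over 10897 genes correlated with a median r of 0.108 at 5 to 6 somite pairs (n = 34) and 0.0444 at 7 to 9 (n = 32). The study's methods use no block, so the tissue comparison was fitted without it.

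All 36 genes were named, by role. Values in every group were given for those called in a diabetes or interaction comparison and for the 10 with the highest mean in embryos, and up to 5 called genes per direction were named from the other cardiac lists. The genes and lists were chosen with earlier results of these data known. Columns of samples from outside the series numbered 0.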

Additional observations from a re-analysis of the deposited data

Results flagged for a closer look

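For 3 of the 32 genes tested, the change from 5 to 6 to 7 to 9 somite pairs differed between embryos of diabetic and normal dams by a direct test of the difference (edgeR quasi-likelihood interaction, adjusted over all genes). The stage change of Myl7 was larger in diabetic embryos by 0.91 on the log2 scale (adjusted p = 0.020), from changes of 1.34 and 0.42. That of Actc1 was larger by 0.81 (adjusted p = 0.044), from 0.86 and 0.03, and that of Acta2 by 0.74 (adjusted p = 0.042), from 0.74 and -0.01. All 3 kept their direction in every alternative run. The calls of Actc1 and Acta2 were lost without a filter on low counts (adjusted p = 0.074 and 0.071), and that of Actc1 without litter D24M15 (adjusted p = 0.067).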

How the results depend on the processing

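Over 4549 tests of single genes under alternatives, 4425 kept their status as called or not called, 91 lost a call and 33 gained one. Direction was compared only where the main fit or the alternative called the gene, and there 0 reversed. Genes called in neither fit count among the 4425. For embryos of diabetic against normal dams at 7 to 9 somite pairs, the 7 calls became 0 when each litter's counts were summed, 2 with a random litter block, and ranged from 2 to 8 with 1 litter left out, the lowest without N28M05. For the stage change in normal embryos a random litter block gave 14 calls and a fixed one 14, with 5 (without N28M06) to 8 when 1 litter was left out, against 7. For diabetic embryos there were 10 with litter as a fixed block and 15 (without D24M15) to 19 with 1 left out, against 18. The interaction gave 1 call without a filter, against 3. The counts of 0 between conditions in earlier embryos and in yolk sacs stayed at 0 to 0 with any litter left out. The replicate block by conceptus gave 27 and 30 calls between tissues at the earlier and later stage, the same numbers as without pairing. Ratio tests gave 4 calls, against 5, with a pseudocount of 2 (Tnni1 to Tnni3 in normal embryos, adjusted p = 0.057), without litter D24M15 or without the 2 conceptuses that stood apart. The causes were not tested. Litters number 6 to 10 per group, and the filter leaves out genes under about 10 counts per library. With no filter all 36 genes were tested, and Pln and Nppb were called as rising in normal embryos and per somite pair.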

Other observations

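In 2 conceptuses, 1 from a diabetic and 1 from a normal dam, both tissues had been sequenced a second time as batch controls. Among genes of the 36 with more than 20 counts, the log2 ratio of the repeat to the first library lay between -0.31 and 0.28 (30 genes) and between -0.39 and 0.49 (32 genes) in the embryos, with medians of 0.01 and -0.02. In the yolk sacs it lay between -0.19 and 0.29 (9 genes) and between -0.17 and 0.33 (12 genes).

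The share of molecules in thick filament genes had medians of 0.0400% in earlier and 0.0530% in later normal embryos, and of 0.0380% and 0.0654% in diabetic embryos. For thin filament genes the medians were 0.129% and 0.139% in normal and 0.103% and 0.153% in diabetic embryos.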
